A study of Mus musculus with 3 samples.

Results

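The loci of Kcnq1 with Kcnq1ot1, of Igf2r with Airn, and of Gnas are imprinted regions of the mouse genome at which a long transcription unit runs across a promoter that is known to be methylated on the maternal copy. H3K36me3 at these loci was measured in fully grown germinal vesicle (GV) oocytes, with an ultra-low-input native ChIP-seq protocol, in which chromatin is cut by micrococcal nuclease and pulled down with an antibody without cross-linking. The members were the 5 genes Kcnq1, Kcnq1ot1, Igf2r, Airn and Gnas, taken from the GENCODE M21 annotation of GRCm38, and the regions were their bodies with 20 kb on both sides. These held 343 of the 1186323 valid 2 kb windows of the deposited table, namely 181 at the Kcnq1 locus, 110 at the Igf2r locus and 52 at the Gnas locus, and no window of these regions was missing from the table.

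The samples formed a single group of 3 replicates, each a pool of about 280 oocytes of wildtype C57BL6/Babr mice aged 25 days. Replicate 2 was made with less antibody than replicates 1 and 3. Replicate 1 had 7888140 recovered reads in valid windows, replicate 2 had 2692510 and replicate 3 had 3166564, and 8070 reads in all fell in the windows of the 3 loci. Values are in the authors' RPKM (reads per window scaled to library depth), and a window was enriched when its mean over the 3 replicates was above 1. A value above 1 took 8 reads in replicate 1 and 3 reads in each of the others, so single windows carry a large counting error and the text leans on sums over several windows. Over the 343 windows, Pearson's r across windows was 0.536 for replicates 1 and 2, 0.600 for 1 and 3, and 0.463 for 2 and 3. Neighbouring windows share domains and libraries, so these are descriptions.

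H3K36me3 is placed on chromatin behind elongating RNA polymerase II, over the bodies of transcribed genes. In growing oocytes it is known as the mark at which new DNA methylation is laid down, and a promoter that lies inside another gene's active transcription unit can thereby be methylated in the egg. At each of these loci such an internal promoter starts a non-coding RNA or an alternative first exon, is methylated on the maternal copy and is active only from the paternal copy in the embryo. Kcnq1 encodes a voltage-gated potassium channel subunit, and Kcnq1ot1 is an antisense non-coding RNA that starts in an intron of Kcnq1 and silences genes around it in cis. Igf2r encodes the receptor that clears insulin-like growth factor II, and Airn is the antisense non-coding RNA that starts in an intron of Igf2r and silences it in cis. Gnas encodes the stimulatory G protein alpha subunit and has alternative first exons, which for the upstream ones give the secretory protein Nesp55 and the long form XL; Nespas is a non-coding RNA antisense to the Nesp exon, and exon 1A starts a further non-coding transcript. DNA methylation and RNA of these oocytes were not analysed here, and ChIP reads carry no strand, so the mark of an antisense gene cannot be told apart from that of the gene it overlaps.

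The promoters in question are shown first, since the results turn on them. The stretches of 300 bases run from 250 bases before to 50 bases after the start, 5′ to 3′ along the transcript, with each CpG, the site of DNA methylation, in capitals. They come from RefSeq on GRCm38.p6, whose promoter table held 4 of the 5 members (Kcnq1 had no entry), except that of Nespas, which was read from the genome around its GENCODE start. RefSeq starts need not equal the GENCODE starts used for the windows below. The exon 1A stretch lies around a RefSeq start downstream of the GENCODE position 174327570. The first 4 stretches hold starts in methylated regions. The last pair, Gnas Nesp and Igf2r, are host promoters of the same loci and serve as the contrast.
Kcnq1ot1, chr7:143296498-143296797, minus strand: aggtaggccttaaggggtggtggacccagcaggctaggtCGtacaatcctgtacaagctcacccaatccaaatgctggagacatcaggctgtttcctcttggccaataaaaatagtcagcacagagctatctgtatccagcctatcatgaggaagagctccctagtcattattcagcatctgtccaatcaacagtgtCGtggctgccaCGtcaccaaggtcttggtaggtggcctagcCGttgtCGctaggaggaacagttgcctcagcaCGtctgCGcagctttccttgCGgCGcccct
Airn, chr17:12741061-12741360, plus strand: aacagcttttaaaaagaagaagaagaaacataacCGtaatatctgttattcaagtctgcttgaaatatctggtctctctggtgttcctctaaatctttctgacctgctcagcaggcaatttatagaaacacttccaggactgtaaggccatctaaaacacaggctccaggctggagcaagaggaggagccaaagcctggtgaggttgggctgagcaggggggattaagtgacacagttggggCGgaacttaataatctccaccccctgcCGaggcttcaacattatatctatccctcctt
Nespas, chr2:174295387-174295686, minus strand: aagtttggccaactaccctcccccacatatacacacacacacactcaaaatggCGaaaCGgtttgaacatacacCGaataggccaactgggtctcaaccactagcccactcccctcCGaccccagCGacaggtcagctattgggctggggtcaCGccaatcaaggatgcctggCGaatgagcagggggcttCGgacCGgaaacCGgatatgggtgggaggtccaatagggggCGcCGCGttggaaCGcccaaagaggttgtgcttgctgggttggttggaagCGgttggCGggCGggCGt
Gnas exon 1A, chr2:174327499-174327798, plus strand: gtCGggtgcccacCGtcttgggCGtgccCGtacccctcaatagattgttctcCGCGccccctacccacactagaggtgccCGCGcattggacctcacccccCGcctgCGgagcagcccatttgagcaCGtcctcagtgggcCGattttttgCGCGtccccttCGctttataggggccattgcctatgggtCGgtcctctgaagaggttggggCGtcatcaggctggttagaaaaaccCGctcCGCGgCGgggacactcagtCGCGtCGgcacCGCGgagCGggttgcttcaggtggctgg
Gnas Nesp, chr2:174284070-174284369, plus strand: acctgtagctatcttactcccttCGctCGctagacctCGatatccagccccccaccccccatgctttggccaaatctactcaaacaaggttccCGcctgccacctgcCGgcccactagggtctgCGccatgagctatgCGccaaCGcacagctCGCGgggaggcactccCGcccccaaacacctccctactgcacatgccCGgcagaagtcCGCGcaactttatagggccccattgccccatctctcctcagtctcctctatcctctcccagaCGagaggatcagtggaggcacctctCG
Igf2r, chr17:12769657-12769956, minus strand: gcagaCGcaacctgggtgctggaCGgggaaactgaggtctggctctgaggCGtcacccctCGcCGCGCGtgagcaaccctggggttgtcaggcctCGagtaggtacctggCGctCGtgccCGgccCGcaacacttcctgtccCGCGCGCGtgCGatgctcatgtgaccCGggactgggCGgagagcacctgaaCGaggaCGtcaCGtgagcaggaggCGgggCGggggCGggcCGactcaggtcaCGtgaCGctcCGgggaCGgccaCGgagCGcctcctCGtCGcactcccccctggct

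These stretches held 9 CpG for Kcnq1ot1, 3 for Airn, 18 for Nespas, 27 for Gnas exon 1A, 16 for Gnas Nesp and 34 for Igf2r. The CpG number of the stretch therefore did not separate the internal promoters from the host promoters. In the GENCODE annotation, the Kcnq1ot1 start (chr7, position 143296549, minus strand) lay in intron 11 of the longest coding Kcnq1 transcript and in no exon of Kcnq1. The Airn start (chr17, position 12741311, plus strand) lay in intron 2 of Igf2r and in no exon of it. The Nespas start (chr2, position 174295436, minus strand) lay in intron 2 of the longest coding Gnas transcript, as did the XL start (position 174297859) and the exon 1A start (position 174327570), both of which open exons of other Gnas transcripts.

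Imprinted regions are protected after fertilisation by ZFP57, which binds methylated TGCCGC. This hexamer was searched on both strands, where it reads TGCCGC or GCGGCA. None of the 6 stretches above held it, and 11.6% of the 32851 promoters of the RefSeq table did. In the 2 kb windows within 2 kb of each start it was found 3 times for Kcnq1ot1, 8 times for Airn, 12 times for Nespas with Gnas XL and 4 times for Gnas exon 1A, which are sums over 3 or 4 windows. In the single window with the start it was found 0 times for Kcnq1ot1, 3 times for Airn, 3 times for Nespas, 4 times for XL and 2 times for exon 1A. The windows of the host promoters held it too, 2 times for Nesp, 2 times for Gnas exon 1 and once for Igf2r, with 0 for Kcnq1. At the loci 59 of the 343 windows held it at least once, against 11.1% of all valid windows. The 120 bases with the most copies are given for the first 3 of these, on the plus strand with the hexamer in capitals; copies may overlap, as in the run of the Nespas stretch. For Gnas exon 1A no stretch of that length held more than 1.
Kcnq1ot1, stretch with the most TGCCGC, chr7:143295648-143295767, plus strand: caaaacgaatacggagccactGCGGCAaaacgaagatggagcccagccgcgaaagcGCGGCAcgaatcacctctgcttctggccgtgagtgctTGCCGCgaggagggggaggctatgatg
Airn, stretch with the most TGCCGC, chr17:12741719-12741838, plus strand: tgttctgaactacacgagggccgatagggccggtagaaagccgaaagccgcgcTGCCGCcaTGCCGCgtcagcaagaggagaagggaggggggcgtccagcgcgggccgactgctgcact
Nespas and Gnas XL, stretch with the most TGCCGC, chr2:174295867-174295986, plus strand: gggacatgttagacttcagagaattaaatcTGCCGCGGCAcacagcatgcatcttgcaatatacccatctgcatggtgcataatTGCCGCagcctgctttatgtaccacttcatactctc

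The cell type was checked with lists of marker genes. All 8 oocyte genes (Zp1, Zp2, Zp3, Gdf9, Bmp15, Figla, Nlrp5 and Padi6) had a mean above 1, between 1.53 for Nlrp5 and 3.73 for Bmp15, and 0 of them had a window called for H3K27me3. Of 8 genes of granulosa cells, the somatic cells around the oocyte, 3 were above 1 (Nr5a2 with 2.02, Hsd17b1 with 1.40 and Amh with 1.39). The other 5, Foxl2 and Fshr among them, lay between 0.353 and 0.714 and each held at least 1 window called for H3K27me3. All these markers are protein-coding. For comparison, 52.5% of protein-coding genes with a valid window had a mean above 1, and 43.9% held at least 1 window called for H3K27me3. Over all genes with a valid window the shares were 39.9% and 40.1%.

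The gene bodies of the 3 loci were covered by H3K36me3 over most of their length, and the flanks were not, apart from the 20 kb before Gnas. Of the 343 windows 268 (78.1%) were enriched, against 31.8% of all valid windows, and 186 (54.2%) were above 1 in each replicate, against 19.7% of all valid windows. In the gene bodies 252 of 283 windows (89.0%) were enriched, and 16 of the 60 windows of the flanks (26.7%) were. Of these 16 windows, 10 lay in the 20 kb before Gnas, where all 10 windows were enriched. With the genes pooled, the other marks were called more often in the flanks than in the bodies. H3K27me3, a repressive mark set by Polycomb complexes, was called in 4 of the 283 body windows and in 36 of the 60 flank windows, and in 30.0% of all valid windows. H3K4me3, found at active promoters and, in oocytes, also over wide stretches between genes, was called in 32 body windows and 25 flank windows, and in 28.3% of all valid windows. Of the 32 body windows, 20 lay over Airn, which has 61 windows, so Airn was not poor in this mark. These calls are the authors' own, with 1 call per window and no replicates. A joint call of H3K36me3 with H3K4me3 was found in 18 windows of the 3 loci and of H3K36me3 with H3K27me3 in 7, against 5.08% and 2.57% of all valid windows.

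Igf2r carried the highest level of the 5 genes and Airn the lowest, in each replicate. The mean over the windows of Igf2r was 2.72, 3.29 and 3.15 RPKM in replicates 1, 2 and 3, or 3.05 ± 0.297 (SD, n = 3). It ranked at the 99.4th percentile of the 9978 protein-coding genes of at least 20 kb, whose median was 1.51 and of which 63.1% had a mean above 1. Gnas had 2.05, 2.11 and 2.55, or 2.24 ± 0.272 (SD, n = 3), at the 80.4th percentile. Kcnq1 had 1.92, 2.02 and 2.06, or 2.00 ± 0.0736 (SD, n = 3), at the 69.1st percentile. The ranges of Gnas and Kcnq1 over replicates overlapped, and both lay below every replicate of Igf2r.

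Kcnq1ot1 had 1.81, 2.12 and 1.99 RPKM, or 1.97 ± 0.155 (SD, n = 3), at the 87.9th percentile of the 2301 long non-coding genes of at least 20 kb. Airn had 1.50, 1.83 and 1.70, or 1.67 ± 0.166 (SD, n = 3), at the 82.0th percentile. Both stood above the median of 0.543 of that class, in which 33.1% of genes had a mean above 1. Kcnq1ot1 lies wholly within Kcnq1 and the first part of Airn within Igf2r, so these levels are in part those of the host genes. The levels of Kcnq1 and Kcnq1ot1 did not differ beyond their spread.

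The share of enriched windows was 97.7% for Igf2r (43 of 44 windows), 93.8% for Gnas (30 of 32) and 92.5% for Kcnq1 (149 of 161). A share of at least 90% was reached by 28.0% of protein-coding genes of at least 20 kb. Kcnq1ot1 had 83.3% (40 of 48) and Airn 72.1% (44 of 61). The host genes were thus marked over nearly all of their length. The unmarked windows of Kcnq1ot1 are also windows of Kcnq1, which is the longer gene, so its lower share does not set it apart from its host. Airn held longer stretches without the mark outside Igf2r. These stretches are described below.

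Over Kcnq1 the mark ran from near the gene start to the gene end, across the Kcnq1ot1 promoter, apart from an interruption described below. Its level varied along the gene. The run that holds the Kcnq1ot1 start (chr7:143248001-143304000) had a mean of 2.54 RPKM. The run before it (chr7:143230001-143246000) had 1.69 and the run after it 1.96. The longest unbroken run of enriched windows covered 124 kb (chr7:143306001-143430000), and 272 of the 75026 runs in the genome were as long or longer. The length of this run, 62 windows, depended on the replicates, with 28 windows for the longest run without replicate 1 and 97 without replicate 3. With single windows below 1 bridged, the locus held 5 runs. The longest were a run of 110 kb (chr7:143108001-143218000) and a run of 200 kb (chr7:143230001-143430000), and the others were single windows. The part of Kcnq1 before Kcnq1ot1 (in chromosome order) had 1.95, 1.97 and 2.27 RPKM and the part after it 1.99, 1.99 and 1.99. Their log2 ratio was 0.05 ± 0.12 (SD, n = 3), with 1 of 3 replicates above 0 (exact sign-flip permutation test, two-sided, p = 1; adjusted p = 1 over 20 contrasts). The pooled ratio of reads per window was 1.02, with a 95% exact interval from 0.947 to 1.10 for counting error only.

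The interruption lay in the second part of Kcnq1ot1, the part far from its promoter. In the 12 kb of chr7:143218001-143230000 the level was 0.249, 0.330 and 0.226 RPKM, with 20 reads over the 3 replicates and 0 of 6 windows enriched, and none of the 6 windows was called for any mark. This gap lay in intron 10 of Kcnq1. Repeats made up 94.5% of its sequence, and of the 28060 valid windows of the genome with at least 90% repeats 1.00% were enriched. The part of repeats in the gap was not tested. The gap was chosen as the longest run of windows below the threshold in Kcnq1ot1 and its level is therefore a description.

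Kcnq1 within Kcnq1ot1 had 1.79, 2.11 and 1.95 RPKM against 1.97, 1.98 and 2.11 outside it. The log2 ratio was -0.05 ± 0.13 (SD, n = 3; exact sign-flip permutation test, two-sided, p = 0.5; adjusted p = 0.526). Without the 6 windows of the gap, an alternative added after the data were seen, the part within Kcnq1ot1 had 2.20 ± 0.177 RPKM and the log2 ratio turned to 0.12 ± 0.12, above 0 in 3 of 3 replicates, with a pooled ratio of 1.07 (95% exact interval 0.993 to 1.14). A difference between the stretch shared with Kcnq1ot1 and the rest of Kcnq1 was not detectable at this depth.

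**Figure D1:**
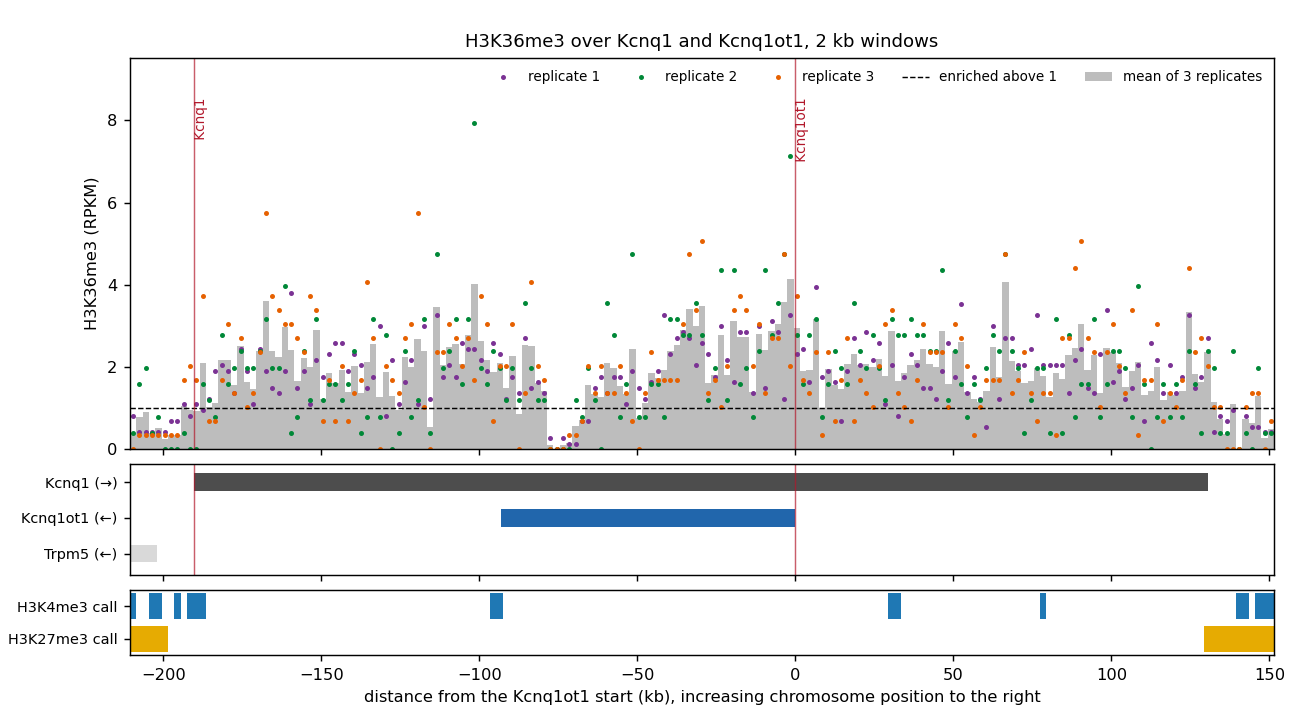
H3K36me3 in 2 kb windows over Kcnq1, Kcnq1ot1 and 20 kb on both sides, against the distance in kb from the Kcnq1ot1 start. Grey bars are the mean RPKM of 3 replicates, dots the replicates, and the dashed line the threshold of 1; below are the genes with their direction and the windows called for H3K4me3 and H3K27me3. The mean over Kcnq1 is 2.00 RPKM, and the level varies along the gene and drops in a gap of 12 kb. H3K27me3 calls lie outside the gene or at its end.

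Igf2r was marked at a higher level than the part of Airn that runs on beyond it. A single unbroken run of 90 kb (chr17:12678001-12768000) covered the gene and ended at the window of the Igf2r start, with 2.69, 3.28 and 3.09 RPKM and 713 runs in the genome as long or longer. Beyond the Igf2r start, where Airn is the only member and small non-coding genes, pseudogenes and Mas1 are also annotated, the mark went on at a lower level. The part of Airn outside Igf2r had 1.27, 1.29 and 1.41 RPKM against 2.72, 3.29 and 3.15 over the body of Igf2r. The log2 ratio was 1.20 ± 0.13 (SD, n = 3), higher over Igf2r in 3 of 3 replicates (exact sign-flip permutation test, two-sided, p = 0.25; adjusted p = 0.333). No result of this test can reach 0.05, since 0.25 is the smallest p that 3 replicates allow. The pooled ratio was 2.24, with a 95% exact interval of 2.06 to 2.45. The level was already lower inside the gene near its start, where the 5 windows inside had a mean of 1.64 RPKM, so the ratio of the bodies does not place the change at the promoter.

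Along Airn the mark broke into 6 shorter runs and then stopped before the annotated end of the gene. The runs beyond Igf2r were between 4 and 26 kb long, and the last enriched window ended at position 12844000. The last run (chr17:12840001-12844000) overlaps the 3′ end of Mas1 on the other strand. Since reads carry no strand, this run cannot be assigned to Airn or to Mas1. From the Igf2r start to there Airn had 1.46, 1.54 and 1.68 RPKM, with 30 of 37 windows enriched and 11 called for H3K4me3. In the remaining 16.1 kb of Airn the level was 0.373, 0.0991 and 0.169, with 0 of 8 windows enriched and 8 of 8 called for H3K4me3. Only the longest of 6 annotated Airn transcripts reaches position 12860136, and the other 5 end at or before position 12830335. The step that best described the reads of each replicate around this border lay 16.1 kb before the annotated end in replicates 1 and 3 and 24.1 kb before it in replicate 2. With Airn taken only to its last enriched window, an alternative added after the data were seen, the log2 ratio of Igf2r over it was 0.96 ± 0.11.

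Within Igf2r, the part shared with Airn was lower than the rest in the pooled reads but not in every replicate. It had 2.13, 3.40 and 2.54 RPKM against 2.99, 3.24 and 3.44 in the rest of the gene, which contains the 3′ part of Igf2r. The log2 ratio was -0.29 ± 0.31 (SD, n = 3), below 0 in replicates 1 and 3 and above 0 in replicate 2 (exact sign-flip permutation test, two-sided, p = 0.5; adjusted p = 0.526). The pooled ratio was 0.787, with a 95% exact interval of 0.705 to 0.879 for counting error only.

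**Figure D2:**
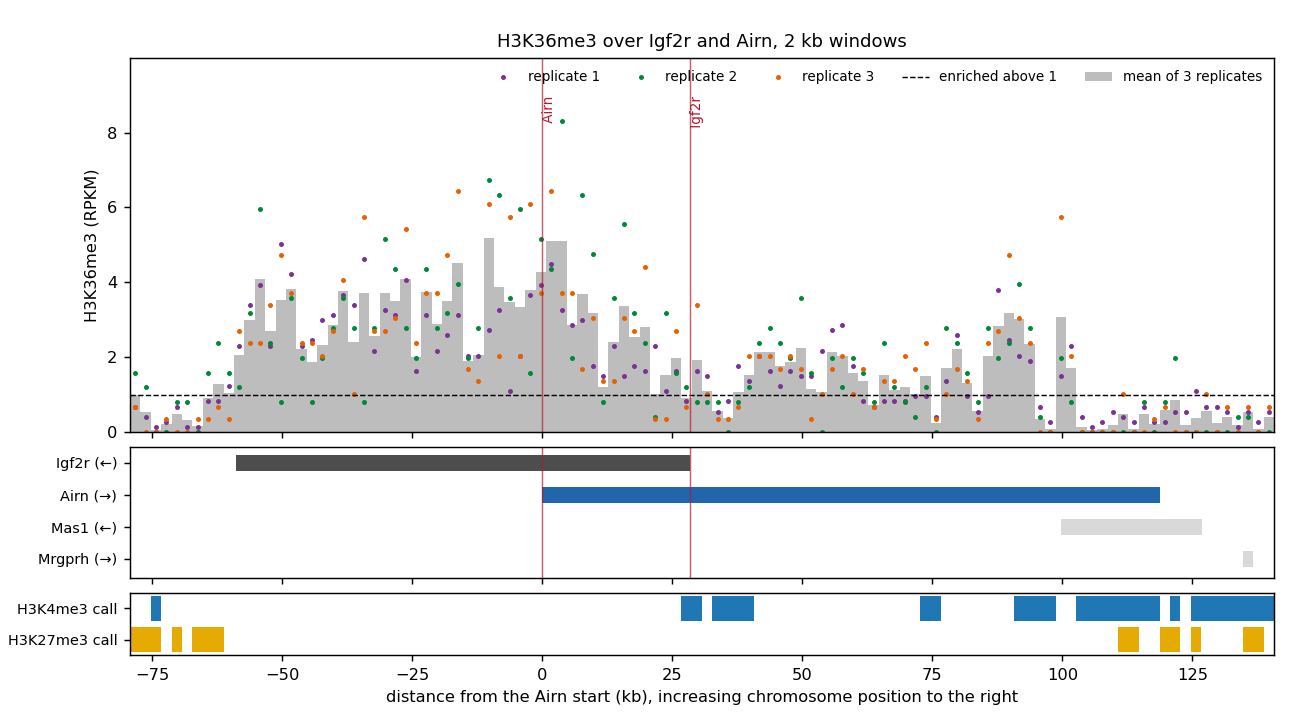
H3K36me3 in 2 kb windows over Igf2r, Airn and 20 kb on both sides, against the distance in kb from the Airn start; symbols are grey bars for the mean RPKM, dots for the 3 replicates, a dashed line at the threshold of 1, bars for genes, and strips for the H3K4me3 and H3K27me3 calls. The mean is 3.05 RPKM over Igf2r and 1.56 over Airn from the Igf2r start to the last enriched window, and it drops to 0.214 in the last 16.1 kb of Airn, where 8 of 8 windows are called for H3K4me3.

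At Gnas the mark began well before the annotated gene. The 20 kb before the Nesp start formed an unbroken run (chr2:174264001-174284000) with 2.68, 2.89 and 3.32 RPKM, 10 of 10 windows enriched and all 10 above 1 in each replicate. The window with the Nesp start then had 0.679, 0.793 and 0.338 RPKM and an H3K4me3 call. From there to the XL start the level was 2.35, 3.11 and 3.87, from the XL start to exon 1A it was 1.87, 1.66 and 2.05, and from exon 1A to the gene end 2.10, 2.03 and 2.26. The first of these stretches was higher than the second in 3 of 3 replicates, with a log2 ratio of 0.71 ± 0.34 (SD, n = 3) and a pooled ratio of 1.52 (95% exact interval 1.29 to 1.79). The second was lower than the third in 3 of 3 replicates, but by a log2 ratio of only -0.19 ± 0.08 and with a pooled ratio of 0.884, whose 95% exact interval of 0.750 to 1.04 includes equal levels. Both had p = 0.25 and an adjusted p = 0.333 (exact sign-flip permutation test, two-sided).

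At the borders of the Gnas domain the 3 replicates placed the step in the same window. With single windows bridged, the domain was 84 kb long (chr2:174264001-174348000). The best step lay at position 174264001 in all 3 replicates on the left and at position 174348001 in all 3 replicates on the right, about 20 kb before the annotated start and 1.26 kb behind the annotated end. In the 5 windows inside the gene end the level was 2.44, 2.93 and 2.44 and in the 5 windows outside it 0.625, 0.555 and 0.677, a log2 ratio of 2.07 ± 0.29. The first of the windows outside straddles the gene end and was enriched, with a mean of 2.69 RPKM, and the 10 windows after it held between 0.0453 and 0.751.

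**Figure D3:**
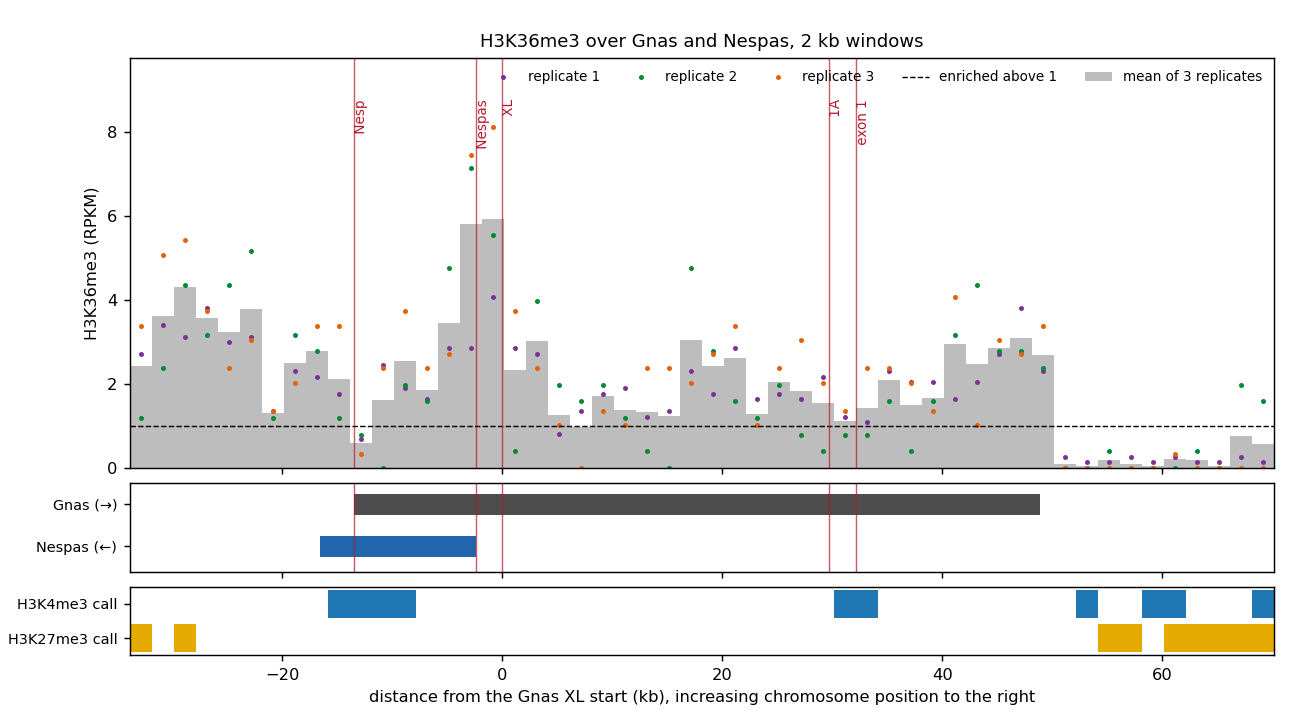
H3K36me3 in 2 kb windows over Gnas, Nespas and 20 kb on both sides, against the distance in kb from the Gnas XL start, with grey bars for the mean RPKM, dots for the 3 replicates, a dashed line at the threshold of 1, red lines at the annotated starts, bars for genes and strips for the H3K4me3 and H3K27me3 calls. The 2 windows that hold the Nespas and XL starts reach 5.81 and 5.92 RPKM, the window of the Nesp start lies at 0.603, and the mark ends at the gene end.

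At the end of Igf2r and at both ends of Kcnq1 the best steps lay at most 8.96 kb from the annotated position. Inside over outside, in 10 kb on each side, the log2 ratio was 2.24 ± 1.07 at the end of Igf2r, 1.73 ± 1.09 at the end of Kcnq1 and 1.94 ± 1.79 at the start of Kcnq1 (SD, n = 3 each), above 0 in 3 of 3 replicates for each. The pooled ratios were 4.66 (95% exact interval 3.35 to 6.61), 3.48 (2.43 to 5.07) and 2.24 (1.54 to 3.30). The large value of replicate 2 at the Kcnq1 start, 4.00, rests on a level of 0.0793 RPKM outside the gene, and the other replicates had 0.97 and 0.84. The best steps of the 3 replicates lay within 8 kb of each other at both ends of Kcnq1 and within 6 kb at the end of Igf2r. The flank before Kcnq1, at 0.592 RPKM, holds the start of Trpm5, a cation channel gene, and 6 of its 10 windows were called for H3K27me3. In the flank behind Kcnq1, at 0.677 RPKM, 10 of 10 were. In the flank behind the end of Igf2r, at 0.597 RPKM, 7 of 10 windows were called.

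At the starts of the antisense genes the mark lay on both sides. At the Kcnq1ot1 start the 10 kb inside had 2.39, 4.52 and 2.71 RPKM and the 10 kb outside 2.42, 2.22 and 1.90, a log2 ratio of 0.51 ± 0.52 that was above 0 in 2 of 3 replicates, with a pooled ratio of 1.28 (95% exact interval 1.02 to 1.60). With 6 kb and 20 kb on either side it was 0.60 and 0.50, and there all 3 replicates were above 0 (exact sign-flip permutation test, two-sided, p = 0.25 each). At the Airn start it was 0.08 ± 0.14, with 3.07, 5.15 and 3.72 RPKM inside and 2.80, 4.52 and 3.93 outside. At the Igf2r start, inside was higher than outside in 3 of 3 replicates (log2 ratio 0.76 ± 0.63, pooled ratio 1.44 with a 95% exact interval of 1.05 to 1.97). With 6 kb on either side that ratio was 0.31 and the replicates differed in sign (exact sign-flip permutation test, two-sided, p = 1). At the end of Kcnq1ot1, which lies in Kcnq1, inside was lower than outside in 3 of 3 replicates (log2 ratio -0.39 ± 0.29), as it was at the Gnas start (-0.31 ± 0.22) and at the annotated end of Airn (-0.88 ± 0.81), where both sides were below 1. Over all 20 contrasts the 3 replicates had the same sign in 15, and the adjusted p lay between 0.333 and 1 (exact sign-flip permutation test, two-sided).

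**Figure D4:**
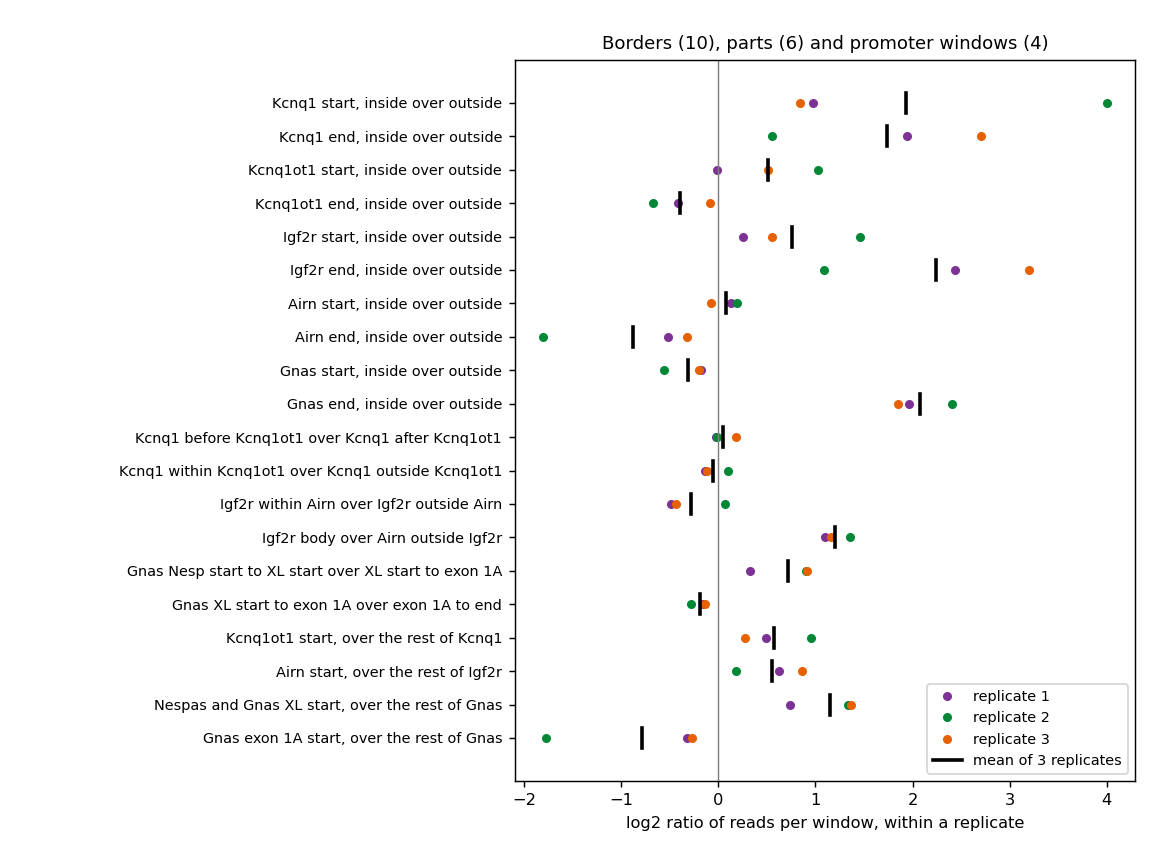
Log2 ratios of reads per window within each replicate (horizontal axis) for 10 borders (10 kb inside over 10 kb outside), 6 pairs of parts and 4 sets of promoter windows over the rest of the host gene; dots are the 3 replicates and black bars their mean. The ends of Igf2r, Kcnq1 and Gnas and the start of Kcnq1 lie furthest to the right, and in 15 of 20 contrasts all 3 replicates lie on the same side of 0.

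The internal promoters carried H3K36me3 at or above the level of the gene they lie in, apart from exon 1A of Gnas. For each start, the windows that overlapped 2 kb on either side were set against the rest of the host gene. The 4 windows of Nespas with Gnas XL had 3.16, 4.46 and 5.50 RPKM against 1.90, 1.77 and 2.13 in the rest of Gnas. Their log2 ratio was 1.15 ± 0.36 (SD, n = 3), and the pooled ratio was 2.05 (95% exact interval 1.75 to 2.40). The 3 windows of Airn had 4.03, 3.70 and 5.41 RPKM against 2.62, 3.26 and 2.99 in the rest of Igf2r, a log2 ratio of 0.55 ± 0.34 and a pooled ratio of 1.51 (1.28 to 1.78). The 3 windows of Kcnq1ot1 had 2.67, 3.83 and 2.48 RPKM against 1.91, 1.98 and 2.06 in the rest of Kcnq1, a log2 ratio of 0.57 ± 0.35 and a pooled ratio of 1.46 (1.20 to 1.77). Each of these 3 was above 0 in 3 of 3 replicates, and the ranges of promoter windows and rest did not overlap. High windows also lay outside the promoter windows. In Igf2r, chr17:12730001-12732000 and chr17:12744001-12746000 had means of 5.18 and 5.10 RPKM. In Kcnq1, chr7:143292001-143294000, beside the Kcnq1ot1 promoter windows, had 3.57. The Kcnq1ot1 promoter window chr7:143298001-143300000 had only 1.91. Whether the rise belongs to the promoters or to wider stretches around them was not tested.

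The windows of Gnas exon 1A went the other way. They had 1.67, 0.661 and 2.14 RPKM against 2.09, 2.26 and 2.59 in the rest of Gnas, a log2 ratio of -0.79 ± 0.85, below 0 in 3 of 3 replicates, and a pooled ratio of 0.707 (95% exact interval 0.536 to 0.918). Replicate 2 set much of the mean, with a log2 ratio of -1.77 against -0.32 in replicate 1 and -0.27 in replicate 3, and it was the replicate with less antibody and the fewest reads, whose part in the result was not tested. All 4 promoter contrasts had p = 0.25 and an adjusted p = 0.333 (exact sign-flip permutation test, two-sided).

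Of the single windows with an internal start, that of Gnas XL had the highest mean and that of exon 1A the lowest. The window with the XL start had 4.07, 5.55 and 8.12 RPKM (mean 5.92) and the window with the Nespas start 2.85, 7.13 and 7.45 (mean 5.81), both at the 99.96th percentile of all valid windows. The window with the Airn start had 3.94, 5.15 and 3.72 (mean 4.27, percentile 99.5), and the next window inside Airn 4.48, 4.36 and 6.43 (mean 5.09, percentile 99.9). The window with the Kcnq1ot1 start had 2.31, 2.77 and 3.72 (mean 2.94, percentile 95.1), and the next window inside Kcnq1ot1, which holds the hexamer stretch shown above, 3.26, 7.13 and 2.03 (mean 4.14, percentile 99.4). All of these windows were called for H3K36me3 alone. The window with the exon 1A start had 2.17, 0.396 and 2.03 (mean 1.53, percentile 77.9), with 1 read in replicate 2, and was also called for H3K36me3 alone. The next window, with 154 CpG, had a mean of 1.12 and was called for H3K36me3 and H3K4me3, and so was that of Gnas exon 1, the promoter of the stimulatory G protein alpha transcript, with a mean of 1.42.

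The host promoters looked different. The window with the Igf2r start had 0.815, 1.19 and 0.677 RPKM (mean 0.894), that with the Kcnq1 start 1.09, 0 and 1.69 (mean 0.926; the 0 reads of replicate 2 allow up to 3 reads) and that with the Nesp start a mean of 0.603. All 3 were called for H3K4me3 and for no other mark. The next window inside Kcnq1 holds further annotated Kcnq1 starts, at positions 143108351 and 143109194. That window had 0.951, 1.59 and 3.72 RPKM (mean 2.09) and was called for H3K36me3 and H3K4me3. The Kcnq1 values above are therefore those of the window with the first start. The Nesp window formed the break between the run of 20 kb before Gnas and the run of 18 kb after it. The Igf2r window was the end of the run of 90 kb and held the only H3K4me3 call over the body of Igf2r.

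The windows of the internal starts held fewer CpG than those of the host promoters. The window of the Kcnq1ot1 start held 45 CpG, that of Airn 54, that of Nespas 62, that of XL 84 and that of exon 1A 98, against 102 for Kcnq1, 120 for Igf2r, 120 for Nesp and 153 for Gnas exon 1. The median valid window held 14. The windows behind the XL start, with 137 CpG, and behind the exon 1A start, with 154 CpG, were exceptions to this order. So was the window behind the first Kcnq1 start, which holds further Kcnq1 starts and 16 CpG. The window behind the XL start had 2.85, 0.396 and 3.72 RPKM and was called for H3K36me3 alone. The window behind the exon 1A start had a mean of 1.12 RPKM and was called for H3K36me3 and H3K4me3. It holds the start, at position 174328023, of 1 of the 6 annotated transcripts of the exon 1A cluster, so the exon 1A values above are those of the first start of that cluster. At the 3 loci 20 windows held at least 45 CpG, a limit taken from the Kcnq1ot1 start window, and 14 of them were enriched, against 29.9% of all windows of this kind. Of these, 11 had no H3K4me3 call and all 11 were enriched for H3K36me3, against 51.5% of the 8810 windows of this kind in the genome. The other 9 had an H3K4me3 call and 3 of them were enriched, against 21.5% of 22770. The 11 windows without an H3K4me3 call all lie in the gene bodies, where 89.0% of windows were enriched. Their share therefore does not set CpG-rich windows apart from the other windows of these genes. The limit also admits every window with an internal start. Several of these windows are neighbours, so they are not independent. Windows with at least 5 copies of TGCCGC numbered 353 in the genome, of which 24.1% were enriched; the loci held 2 of them, next to the XL start and next to the Airn start, both called for H3K36me3 alone.

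**Figure D5:**
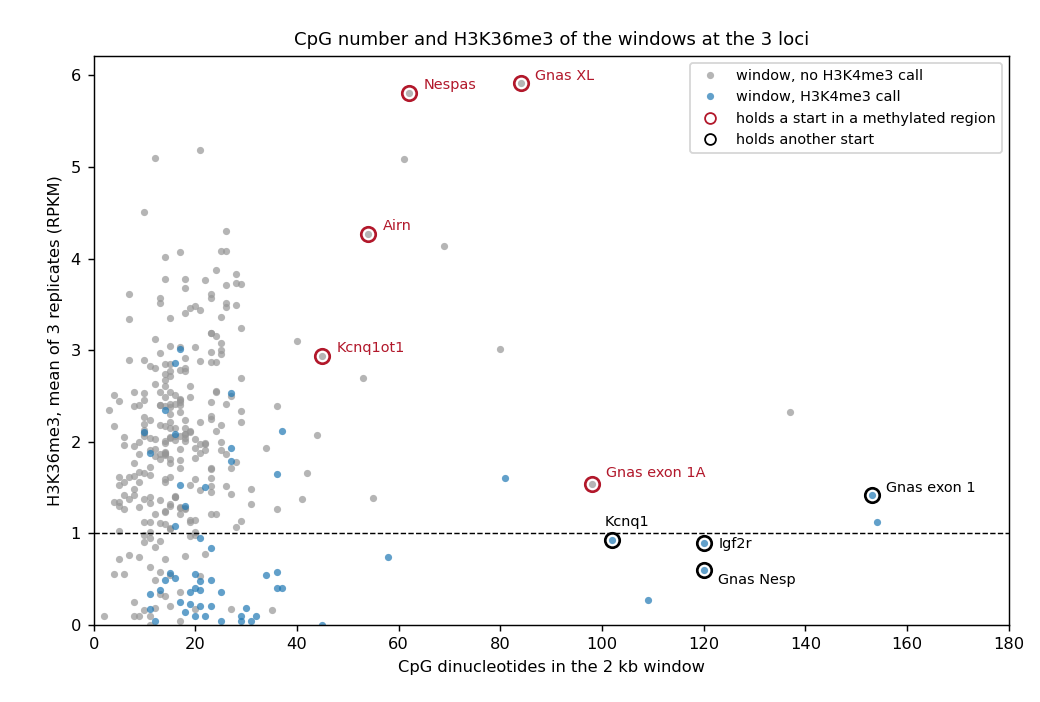
Mean H3K36me3 of 3 replicates (RPKM) against the number of CpG dinucleotides for each of the 343 windows of the 3 loci; blue dots have an H3K4me3 call, red circles mark windows with a start in a methylated region and black circles windows with another annotated start. The red circles lie between 1.53 and 5.92 RPKM and have no H3K4me3 call, and the black circles lie between 0.603 and 1.42 and all have one. For exon 1A the circle is the window of the first annotated start. The next window, with 154 CpG and a further exon 1A start, has an H3K4me3 call. For Kcnq1 the circle is also the window of the first annotated start. The window after it holds further Kcnq1 starts, has a mean of 2.09 RPKM and is called for H3K36me3 and H3K4me3.

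Of the genes around the loci, few had a mean above 1 near Kcnq1 and Igf2r. Near Gnas the share was close to that of all protein-coding genes. Of all protein-coding genes with a valid window 52.5% had a mean above 1, and 43.9% held at least 1 window called for H3K27me3, a share that depends on the number of windows in a gene. Of 11 neighbours of the Kcnq1 cluster, 1 had a mean above 1, Nap1l4 with 2.98 ± 0.324 RPKM (SD, n = 3), which encodes a histone chaperone. The others lay between 0.160 for Tnfrsf23 and 0.941 for Tssc4, and the list had a median of 0.478. In 7 of the 11 at least 1 window was called for H3K27me3, among them Cdkn1c, an inhibitor of cyclin-dependent kinases (0.458 RPKM), and Ascl2, a transcription factor of the trophoblast (0.358 RPKM). Slc22a18, with 0.867 RPKM, had 14 of 14 windows called for H3K4me3 and 10 for H3K27me3.

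Of 6 neighbours of the Igf2r cluster, Mrpl18, a mitochondrial ribosomal protein gene, was above 1 with 1.65 ± 0.237 RPKM (SD, n = 3). Slc22a2 and Slc22a3, which encode organic cation transporters and are silenced by Airn in the placenta, had 0.227 and 0.612. The median was 0.639, and 5 of 6 held a window called for H3K27me3. Of all protein-coding genes 43.9% did, a share that depends on the number of windows in a gene. Mas1, a G protein-coupled receptor gene that overlaps the end of Airn on the other strand, had 0.661, 0.423 and 0.722 RPKM, with 11 of 15 windows called for H3K4me3.

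Around Gnas, 6 of 11 genes of the list had a mean above 1, against 52.5% of all protein-coding genes, with a median of 1.17. Among the 6 is Nespas, a non-coding gene that overlaps the windows of Gnas itself. Nespas was the highest with 2.04, 2.53 and 3.21 RPKM (mean 2.59), followed by Nelfcd, which encodes a subunit of the negative elongation factor, with 2.42 and Atp5e, an ATP synthase subunit, with 2.04. Npepl1 had the lowest level of 0.268, with 7 of 7 windows called for H3K27me3. Edn3, which encodes endothelin 3, had 0.328 with 12 of 13 windows called. Of the genes reported from these lists, Nespas, Mas1 and Trpm5 overlap the windows of the 3 loci. Other named genes of the flanks were Mrgprh, another receptor gene, behind Airn (0.539 RPKM in its single window, called for H3K4me3 and H3K27me3), and the microRNA genes Mir296 and Mir298 before Gnas, which share a window with 3.39, 2.38 and 5.08 RPKM.

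The genes whose H3K36me3 profile was most like that of a host gene were found by the root mean square difference over 20 equal parts of the body and 4 parts of 5 kb in each flank, among protein-coding genes of at least 20 kb. For Kcnq1 these were Fyn, a Src family kinase gene (difference 0.411 RPKM, level 2.01 ± 0.0527), and Pgm2l1 (0.450). For Igf2r they were Samd7 (0.723) and Eprs (0.761), and for Gnas Meaf6 (0.784) and Sdhaf2 (0.835). The median difference over all genes was 1.11 RPKM for Kcnq1, 1.64 for Igf2r and 1.68 for Gnas. Profiles are means of 3 replicates over 28 parts, so these are descriptions of shape and level.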

How the data were processed

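As described in the study's methods, reads were trimmed and mapped to GRCm38 by the authors (Bowtie2 version 2.2.9, from the submitters' processing notes) and counted in SeqMonk over 2 kb windows, with windows of very low or very high input left out. The values were deposited as RPKM, by the authors' name, on a linear scale for each replicate. All values were whole multiples of the value of 1 read (0.136, 0.396 and 0.338 RPKM in replicates 1, 2 and 3; tolerance 0.05 read), so reads were recovered. Read as CPM, the recovered reads exceed the depth implied by the value of 1 read by a factor of 1.07 in each replicate, and read as RPKM by more, so the values were treated as proportional to CPM. Whether duplicate reads were removed is not given in the sources used here, and intervals cover counting error only.

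A second deposited table names the marks the authors called in each window (H3K4me3, H3K27me3, H3K36me3), without measurements. Its H3K36me3 call equalled a mean above 1 in every valid window (0 differences).

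Gene levels are means over windows that overlap the gene body (GENCODE M21). Borders compare 10 kb inside with 10 kb outside, parts use windows by midpoint, and promoters are windows overlapping 2 kb around a start. Contrasts are log2 ratios of reads per window within a replicate, tested over the 3 replicates by exact sign flips (a permutation test, two-sided, smallest p 0.25) and adjusted by the Benjamini-Hochberg method over 20 contrasts. Nothing in the labels says that the pools came from separate animals, so p-values measure the spread between these samples. Pooled ratios carry 95% exact (Clopper-Pearson) intervals. Border steps were those of highest Poisson likelihood for a change of level. Runs are neighbouring enriched windows. A count of 0 was taken to allow 3 reads. Python 3.11.15, numpy 2.4.6, pandas 2.3.3 and scipy 1.17.1 were used, and the code was tested on simulated data.

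Genes named are the 5 members, Nespas, the genes of the 20 kb flanks, fixed lists of neighbours and markers (Slmo2 was matched as Prelid3b), and the 2 genes with the most similar profile for each host gene. Of the neighbours, the highest and lowest are named by rule and the others were named for their known roles with their values seen. A neighbour of Igf2r is not reported here. The members and lists were chosen with earlier results of these data known. The gap, the border steps, the CpG limit and the ends of runs were chosen on these values and carry no test.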

Additional observations from a re-analysis of the deposited data

How the results depend on the processing

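Of 234 recomputed values, 209 kept their direction or stayed within the tolerance, which was 1 SD for gene levels and 1.5 times for counts. All 35 alternative gene levels moved by less than the SD over replicates, and 16 of 20 log2 ratios kept a single sign under every alternative run. No test passed a threshold in any setting, since 3 replicates do not allow it, so only directions are compared. The log2 ratio at the Airn start turned to -0.16 and that at the Airn end to 0.65 with 20 kb on either side, the latter because the wider stretch reaches the last enriched windows of Airn. The log2 ratio of Kcnq1 before over after Kcnq1ot1 lay between -0.021 and 0.084 when a replicate was left out, and that of Kcnq1 within over outside Kcnq1ot1 turned to 0.12 without the gap, an alternative added after the data were seen. Enriched windows at the threshold of 2 fell to 79 at the Kcnq1 locus, 48 at Igf2r and 25 at Gnas. Leaving out a replicate gave 6 to 18 runs at Kcnq1 (the longest of 28 to 97 windows), 9 to 11 at Igf2r and 3 to 5 at Gnas (the longest of 12 to 21 windows); the extremes came without replicate 1 or 2 at Kcnq1 for the number and without replicate 1 or 3 for the length, without replicate 1 at Igf2r and without replicate 3 at Gnas. A threshold of 1.5 gave 23 runs at Kcnq1, the longest of 19 windows, 11 at Igf2r, and 8 at Gnas, the longest of 8 windows. Bridging 1 window left 5 runs at Kcnq1 (the longest with 98 enriched windows), 3 at Igf2r and 1 at Gnas (40 enriched windows). Numbers of runs therefore depend on the setting, and the cause of single breaks was not tested. By midpoint, 0 windows of Kcnq1ot1 were called for H3K4me3 in place of 1. There is a single group, so no samples of different groups could be paired. The contrasts are paired by replicate, since each compares stretches within the same replicate. With 3 reads enough for a value above 1 in replicates 2 and 3, differences between single windows were mostly not detectable.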
